A study of Mus musculus with 3 samples.

Results

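Activated microglia were taken as the deeply sequenced, non-cycling microglia of a mouse glioblastoma (GBM) that held at least 2 of 6 activation genes. A cell had to pass filters of at least 200 genes and at most 20% mitochondrial counts, and to hold at least 2000 unique molecular identifiers (UMIs, 1 per counted RNA molecule). It had to show at least 1 UMI of 3 or more of the 7 microglia genes *P2ry12*, *Tmem119*, *Sall1*, *Siglech*, *Gpr34*, *Olfml3* and *P2ry13*, and of 2 or more of the activation genes *Cxcl13*, *Ch25h*, *Cst7*, *Lpl*, *Spp1* and *Itgax*. Cells with 3 or more of the 5 cycling genes *Mki67*, *Top2a*, *Birc5*, *Pclaf* and *Hist1h1b* were left out. A barcode that also occurred in another library was dropped unless its UMIs reached 5 times those of the copy. These steps left 71 activated microglia of 1622 deep microglia, out of 6947 barcodes in all. The other 1551 deep microglia, with 0 or 1 activation gene, are called homeostatic below, by the rule and not by function. Because these counts chose the cells, the levels of the 18 genes of the rule within the chosen cells are given as a description, without a test. The 6 activation genes were tested only over all deep microglia, which were chosen without them.

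The study asked how niacin, given systemically, changed the immune cells of GBM, and its single cell libraries came from 3 pools of brain tissue. All mice were C57BL/6 females of 6 to 8 weeks, implanted in the right striatum with BTIC0309, a mouse brain tumor initiating cell line that carries luciferase and GFP. From day 7 the niacin group received 100 mg/kg niacin daily by intraperitoneal injection and the vehicle control group received saline. At 4 weeks a 2 mm section round the injection site was pooled from 4 tissues per sample by the labels, which name 5 control and 10 niacin mice, and live cells were sorted for 3′ droplet sequencing. The files analysed are 1 vehicle control library, labelled replicate 2, and 2 niacin libraries, labelled replicates 1 and 2. The tumor and the implantation were common to both groups, so nothing here compares a tumor-bearing brain with an intact one.

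Microglia are the resident macrophages of the brain and keep a resting program with *P2ry12*, *Tmem119* and *Cx3cr1* under signals from the brain tissue. In demyelination, neurodegeneration and tumors a share of them lowers these genes and raises a program for lipid handling, lysosomes and phagocytosis, often called the disease-associated state, in which *Apoe*, *Axl*, *Cst7*, *Lpl*, *Spp1* and *Itgax* are the usual members. *Lpl* encodes lipoprotein lipase, *Cst7* the cysteine protease inhibitor cystatin F, *Itgax* the integrin CD11c, and *Spp1* the secreted protein osteopontin. *Cxcl13* encodes a chemokine that draws B cells and *Ch25h* the enzyme that makes 25-hydroxycholesterol.

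The 3 libraries held 2145 to 2532 barcodes and 8301228 to 10359526 UMIs each. Of all barcodes 2300 also occurred in another library, and 1259 that passed the filters were dropped as copies. Of the 71 activated microglia, 34 had a barcode that also stood in another library at a count at least 5 times lower. Activated microglia were deeper than homeostatic microglia, at a median of 9834 against 6363 UMIs. The vehicle control cells were the deepest, at 11049 UMIs against 7487 and 8625 in niacin replicates 1 and 2. A deeper cell has more chances to show 2 activation genes. When every cell was thinned to 2000 UMIs before the rule was applied, 7, 1 and 4 cells of the vehicle control, niacin replicate 1 and niacin replicate 2 met it.

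The cells were microglia by their markers: 40 of 71 held all 7 microglia genes, 62 held at least 5, and 5 held only 3. Neuron genes were at 0 in the activated cells of all 3 libraries. Genes of other macrophages were present in part of the vehicle control cells. At least 2 of the 7 infiltrating macrophage genes (*Arg1*, *Thbs1*, *Fn1*, *Itga4*, *Ms4a7*, *Cd44*, *Tgfbi*) were found in 17 of 37 vehicle control cells (45.9%), 2 of 8 niacin replicate 1 cells and 1 of 26 niacin replicate 2 cells, and in 17.3% of the homeostatic cells of the vehicle control. The 4 cells with 3 or more monocyte genes were also from the vehicle control. Summed over the 7 monocyte genes, activated cells held 595, 15.6 and 134 CPM (the UMIs of a gene divided by all UMIs of the summed cells and scaled to a fixed total) in the vehicle control and niacin replicates 1 and 2, and homeostatic cells 1056, 55.1 and 220. Counts below are also given without the microglia that held 2 or more monocyte or infiltrating macrophage genes.

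The other lists showed RNA of cells that were not microglia at levels that differed between libraries. In activated cells of the vehicle control and niacin replicates 1 and 2, summed choroid plexus genes stood at 40.5, 281 and 2974 CPM and summed erythroid genes at 8.53, 719 and 310.1 CPM. Natural killer cell genes stood at 36.2, 15.6 and 417 CPM, where 1 cell of niacin replicate 2 held 3 or more of the 6 genes. Choroid plexus and natural killer cell genes thus stood out in the activated cells of niacin replicate 2. There 1 cell held 90.5% of the UMIs of the choroid plexus gene *Ttr* in the class. In homeostatic cells choroid plexus genes stood at 50.6, 1319 and 1566 CPM. Neutrophil genes ranged from 273 to 453 CPM in activated cells, against 441, 536 and 7033 CPM in homeostatic cells. Border-associated macrophage genes reached 68.2 CPM, T cell genes 15.3, B cell genes 283, oligodendrocyte genes 55.4 and endothelial genes 62.5 CPM. Astrocyte genes reached 188 CPM with *Gfap* and *Aqp4* at 0.

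Most of these cells held no UMI of the chemokine and oxysterol genes that stand first in the name given to them. *Cxcl13* was found in 10 of 71 cells and *Ch25h* in 10, with both in 3 cells and neither in 54. *Lpl* was found in 50 cells, *Cst7* in 44, *Itgax* in 44 and *Spp1* in 18. The pairs seen most were *Cst7* with *Lpl* in 27 cells, *Cst7* with *Itgax* in 25 and *Lpl* with *Itgax* in 25, whereas *Cxcl13* and *Spp1* were never found in the same cell. The rule used all 6 genes, so their order is a description of which of them let the cells in. Of the 71 cells, 48 held exactly 2 activation genes, 15 held 3, 5 held 4 and 3 held 5.

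**Figure D1:**
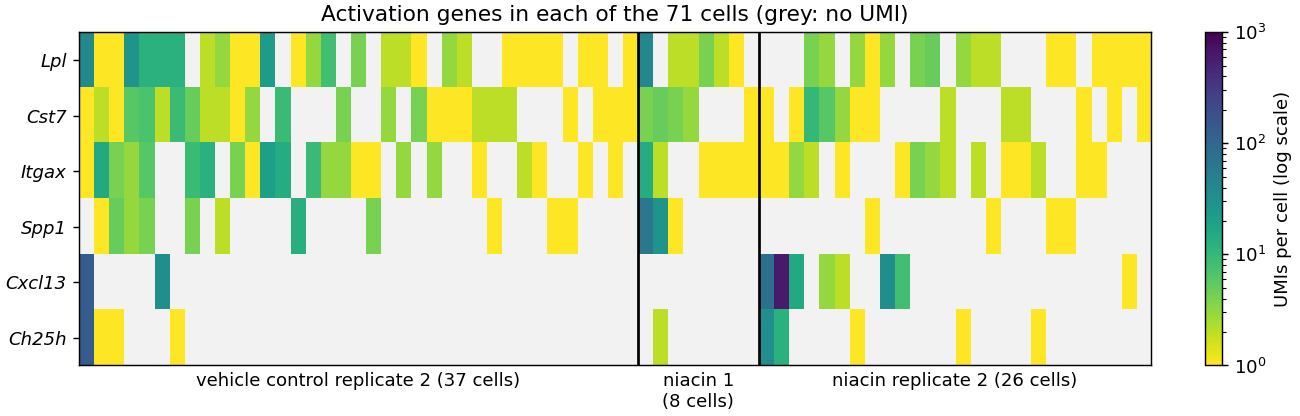
UMIs of the 6 activation genes (rows, colour on a log scale, grey for no UMI) in each of the 71 activated microglia (columns), grouped by library. *Lpl*, *Cst7* and *Itgax* are found in 50, 44 and 44 of the 71 columns, while *Cxcl13* and *Ch25h* are found in 10 cells each and reach over 100 UMIs in few of them.

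Of the activation genes, 3 carry in their promoter the hexamer GGAAGT, the core of the sequence bound by ETS factors, the family of the macrophage factor PU.1. The search covered the 250 bases before each RefSeq start on GRCm38.p6, the build that mm10 names, on both strands (ACTTCC on the printed strand). Of the 6 genes, 5 had an entry, and *Cst7*, *Spp1* and *Itgax* held the hexamer while *Cxcl13* and *Ch25h* did not. The sequences below, 5′ to 3′ with the hexamer in capitals, are shown because these are the activation genes whose window holds it. They lie on the plus strand at chr2:150570165-150570414, chr5:104434861-104435110 (the first of 2 starts) and chr7:128129300-128129549, each just before the first exon of its gene.
Cst7: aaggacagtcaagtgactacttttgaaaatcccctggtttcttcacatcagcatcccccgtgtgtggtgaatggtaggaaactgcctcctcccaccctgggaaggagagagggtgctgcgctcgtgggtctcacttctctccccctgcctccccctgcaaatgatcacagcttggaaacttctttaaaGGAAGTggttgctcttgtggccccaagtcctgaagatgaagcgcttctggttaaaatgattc
Spp1: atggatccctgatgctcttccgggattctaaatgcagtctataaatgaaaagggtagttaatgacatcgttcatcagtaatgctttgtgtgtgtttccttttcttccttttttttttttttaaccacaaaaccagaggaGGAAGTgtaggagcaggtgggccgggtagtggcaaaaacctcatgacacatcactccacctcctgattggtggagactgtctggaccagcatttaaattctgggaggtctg
Itgax: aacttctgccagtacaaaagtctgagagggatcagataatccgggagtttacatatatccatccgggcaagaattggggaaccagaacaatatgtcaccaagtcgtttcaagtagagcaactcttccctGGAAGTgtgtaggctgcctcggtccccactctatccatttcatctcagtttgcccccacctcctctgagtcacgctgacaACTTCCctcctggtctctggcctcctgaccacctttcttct
Among all 27025 genes with a promoter entry, 22.2% held the hexamer, as did 4 of 18 disease-associated genes that were higher in these cells (22.2%) and 5 of 13 homeostatic genes that were lower (38.5%). These matches are letters in a window, and binding was not measured.

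The amount of activation transcript per cell varied widely. Summed over the 6 genes, 16 cells held only 2 UMIs, 33 held 3 to 9 and 22 held 10 or more, with a median of 5 and a maximum of 621. In 17 cells no activation gene exceeded 1 UMI. Just outside the rule stood the homeostatic cells with exactly 1 activation gene, of which 105 held *Lpl*, 60 *Cst7*, 45 *Itgax*, 6 *Ch25h*, 6 *Spp1* and 4 *Cxcl13*. A second gene with a single UMI was enough to bring such a cell inside the rule.

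A few cells carried most of the *Cxcl13*, *Ch25h* and *Spp1* molecules. A cell of niacin replicate 2 with 12600 UMIs held 608 of *Cxcl13* and 12 of *Ch25h*, and no *Apoe*. A vehicle control cell of 27067 UMIs held 133 *Cxcl13*, 133 *Ch25h* and 38 *Lpl* UMIs. Between them these cells held most of the 913 *Cxcl13* and 187 *Ch25h* UMIs of the class. A cell of niacin replicate 1 with 12623 UMIs held 65 *Spp1*, 41 *Lpl* and 907 *Apoe* UMIs, and a second one held 28 *Spp1* and 715 *Apoe* UMIs. All but the last of these 4 had a barcode that occurred in all 3 libraries.

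Levels of the activation genes in the chosen cells followed these single cells. *Lpl* stood at 354, 813 and 138 CPM in the vehicle control and niacin replicates 1 and 2, *Cst7* at 158, 266 and 122 CPM, and *Itgax* at 252, 313 and 99.5 CPM. For these genes niacin replicate 1 was highest and niacin replicate 2 lowest, with the vehicle control between them. *Spp1* stood at 83.1, 1469 and 15.3 CPM, *Cxcl13* at 352, 0 and 2863 CPM and *Ch25h* at 290, 31.3 and 188 CPM. The niacin replicates lay on both sides of the vehicle control for *Spp1* and *Cxcl13* and below it for *Ch25h*. The 0 of *Cxcl13* in niacin replicate 1 rests on 8 cells and allows up to 57.6 CPM by an exact Poisson interval, which like all intervals here covers counting error only.

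Free RNA in droplets gives a low background in every cell type, so shares of cells with a UMI were compared at a fixed depth. After thinning to 2000 UMIs, *Lpl* was found in 33.8% of activated microglia, *Itgax* in 22.5%, *Cst7* in 14.1%, *Spp1* in 14.1%, *Cxcl13* in 9.86% and *Ch25h* in 4.23%. B cells, which should lack these genes, held no *Lpl*, *Spp1*, *Cxcl13* or *Ch25h* UMI in 85 cells (median 5511 UMIs unthinned), and *Itgax* in 1.18% of cells before and after thinning. *Cst7* was no microglial mark in this tissue, since 15.5% of T cells held it after thinning and 36.6% before. Unthinned, 70.4% of activated microglia held *Lpl*, 62.0% *Cst7* and 62.0% *Itgax*, against 6.77%, 3.87% and 2.90% of homeostatic cells, a difference that the rule itself set.

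Other genes moved stepwise with the number of activation genes in a cell, as sums over the libraries show. *Apoe*, the lipid carrier apolipoprotein E, stood at 1393 CPM in the 1325 cells with no activation gene, 2495 in the 226 cells with 1, 4908 in the 48 cells with 2 and 10804 in the 23 cells with 3 or more. *Cd74*, the invariant chain of MHC class II, followed at 532, 1469, 3073 and 4646 CPM, and *Cybb*, the catalytic subunit of the phagocyte NADPH oxidase, at 37.1, 141, 337 and 433 CPM. *Hcar2*, which encodes the niacin receptor, ran from 15.1 through 41.0 and 53.1 to 154 CPM. All of these steps went up.
The purinergic receptor gene *P2ry12*, which the rule used, ran down the same steps from 2527 through 1810 and 848 to 384 CPM, and *Tmem119* from 1622 through 1228 and 819 to 505 CPM. Depth went up along the same steps, from a median of 6160 to 11240 UMIs. The mix of libraries shifted too, with 184 of 1325, 70 of 226, 25 of 48 and 12 of 23 cells from the vehicle control. In homeostatic cells *Cd74* and *Cybb* were highest in the vehicle control and *Apoe* in niacin replicate 2. The part of this mix in the steps was not tested. At 2000 UMIs per cell, *Apoe* was found in 30.2, 41.2, 68.8 and 82.6% of the cells, *Cybb* in 2.79, 7.96, 14.6 and 65.2% and *P2ry12* in 94.8, 85.0, 72.9 and 60.9%. The cells in the step of 1 gene and in the step of 2 differ by the threshold of the rule.

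**Figure D2:**
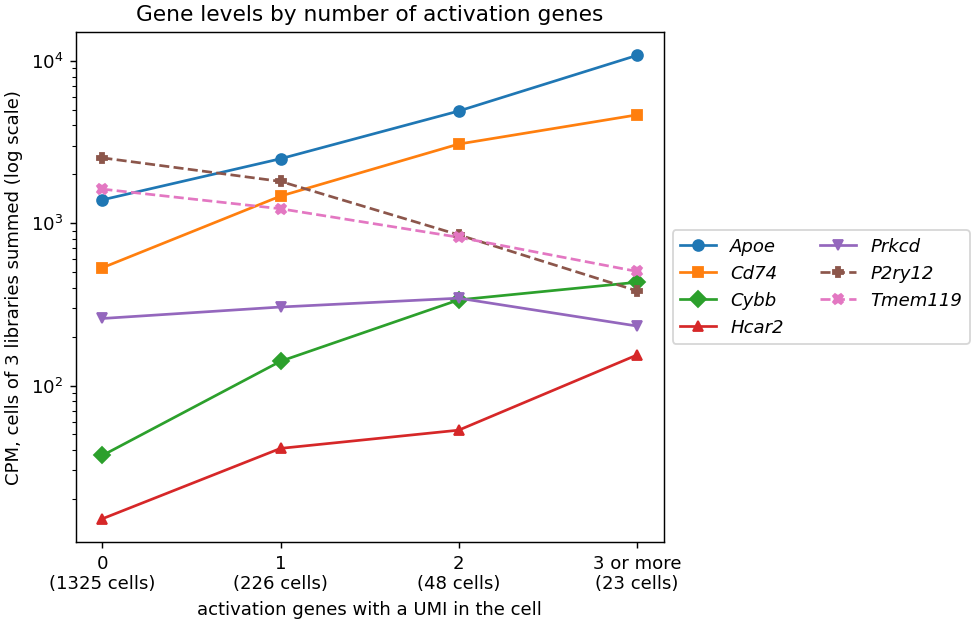
Level (CPM, log scale, cells of the 3 libraries summed) of 7 genes against the number of activation genes with a UMI in the cell, with the number of cells under each step. *Apoe*, *Cd74*, *Cybb* and *Hcar2* climb at each step, *P2ry12* and *Tmem119* (dashed) descend, and *Prkcd* moves between 233 and 345 CPM.

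To compare activated with homeostatic microglia, UMIs were summed per library and class and tested in edgeR with the library as a block, with adjusted p-values (Benjamini-Hochberg over all genes) under 0.05 as the call. The genes of the rule were left out. Of 8888 genes tested, 392 were higher in activated microglia (4.41%) and 277 were lower (3.12%). Without the filter on low counts the split was 287 higher and 327 lower, and the median log2 fold change of all genes moved from -0.03 to -0.31. The classes were read from the same cells, and the cells were deeper in one class than in the other, so these p-values describe the difference between the chosen classes in these 3 pools. The count was 419 without the microglia holding monocyte or macrophage genes, and 178 without the vehicle control, 944 without niacin replicate 1 and 204 without niacin replicate 2. It fell to 15 of 4180 tested genes when the rule was applied to thinned counts. Without the shared barcodes it was 45 of 7726, and without the library block 46.

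Among the genes that rose most were *Cp*, *Axl* and *Apoe*. *Cp*, the ferroxidase ceruloplasmin, stood at 124, 93.8 and 157 CPM in activated cells of the vehicle control and niacin replicates 1 and 2, and at 20.5, 3.36 and 9.01 CPM in homeostatic cells. Its log2 fold change was 3.60 (SE 0.34, edgeR adjusted p = 1.43e-13), or 4.33 without the vehicle control, and only 19 of the 71 cells held it. *Axl*, a receptor kinase for apoptotic cells, stood at 369, 219 and 149 CPM against 92.1, 8.80 and 14.4 CPM. Its log2 fold change was 2.94 (SE 0.27, edgeR adjusted p = 1.06e-13), or 3.88 without the vehicle control. The groups did not overlap for either gene, and each rose in 3 of 3 libraries.

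*Apoe* differed in the amount by which it rose. It stood at 4361, 36288 and 5087 CPM in activated cells and at 1384, 1273 and 2001 CPM in homeostatic cells. The sum of the 8 cells of niacin replicate 1 was thus far above the other sums. Its single cells ranged from 591 to 71853 CPM, and the 907 and 715 UMIs given above were in 1 cell each. The log2 fold change was 2.58 (SE 0.26, edgeR adjusted p = 2.94e-12). It was 1.58 without niacin replicate 1 and 3.29 without niacin replicate 2, and in DESeq2, with the library as a block, it did not pass (adjusted p = 0.0700).

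*Cd72*, an inhibitory lectin-like receptor, rose by 2.77 on the log2 scale (185, 125 and 383 against 63.0, 19.9 and 26.5 CPM), and by 3.53 without the vehicle control and 1.92 without niacin replicate 2. *Csf1*, the growth factor of macrophages, rose by 2.48, and *Cd300lf*, a receptor for phospholipids, by 2.19 with 2.08 and no call without the vehicle control. *Lgals3*, galectin 3, rose by 2.42, with 1.29 without niacin replicate 1 and 3.53 without the vehicle control. *Myo1e*, a class I myosin, rose by 2.196. *Fabp5*, a fatty acid binding protein gene, rose by 2.72, but a single cell held 61.0% of its UMIs in activated microglia. These genes rose in 3 of 3 libraries.

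**Figure D3:**
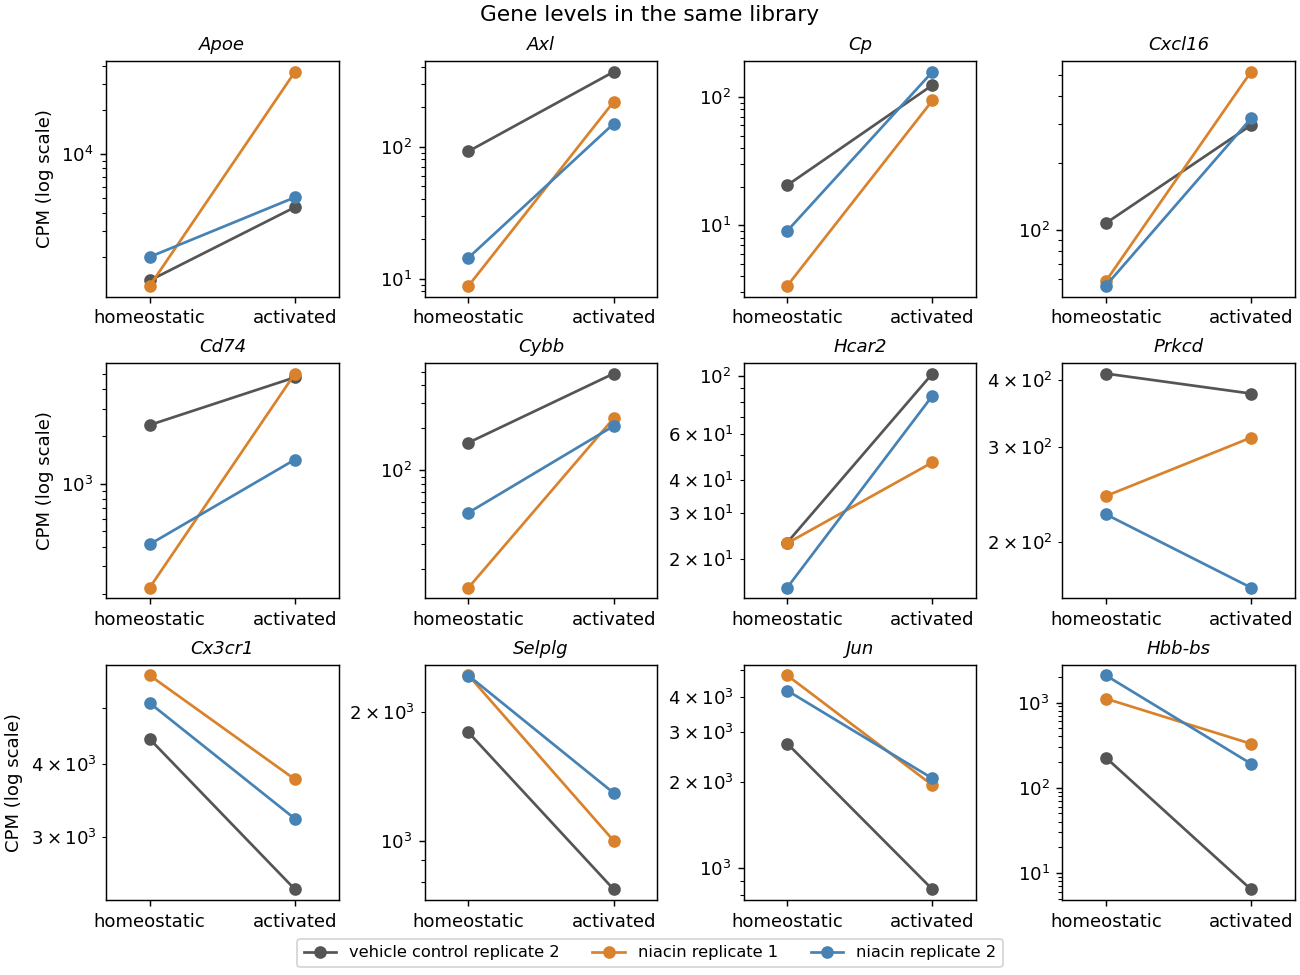
Level (CPM, log scale) of 12 genes in homeostatic and activated microglia, with each line joining the sums of 1 library. The 3 lines rise for *Apoe*, *Axl*, *Cp*, *Cxcl16*, *Cd74*, *Cybb* and *Hcar2* and descend for *Cx3cr1*, *Selplg*, *Jun* and *Hbb-bs*, while those of *Prkcd* go both ways.

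Of the 34 disease-associated genes outside the rule, 26 were tested, 24 rose and none fell, at a median log2 fold change of 1.44 against -0.03 over all genes. *Trem2*, the lipid receptor on which this program depends, differed by 0.09 and *Cadm1*, an adhesion molecule gene, by 0.45, both without passing. The most abundant members were *Apoe*, *Ctsd*, *Fth1* and *Ctsb*. *Fth1*, the ferritin heavy chain, rose by 1.55 (5489, 6626 and 6741 against 2247, 2093 and 2332 CPM). *Ctsb*, cathepsin B, rose by 1.48, and *Ctsd*, cathepsin D, by 0.73, where *Ctsd* was not called at 0.82 without the vehicle control and 0.93 without niacin replicate 2 and was at 0.41 without niacin replicate 1. *Lilrb4a*, an inhibitory immunoglobulin-like receptor, rose by 3.101. The count was 18 without the vehicle control, 23 without niacin replicate 1, 19 without niacin replicate 2 and 24 without the microglia holding monocyte or macrophage genes. It was 8 of 24 without shared barcodes, 14 of 22 with every cell at equal weight and 0 of 19 with the rule on thinned counts.

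Of the 24 homeostatic genes outside the rule, 23 were tested, 17 fell and none rose, at a median of -0.76. *Cx3cr1*, the fractalkine receptor, fell by 0.66 (2430, 3766 and 3219 against 4423, 5700.3 and 5105 CPM), and *Csf1r*, the receptor of colony stimulating factor 1, by 0.55. *Selplg*, a selectin ligand gene, fell by 1.07 (769.5 to 1294 against 1794 to 2441 CPM), *Slc2a5*, the fructose transporter, by 1.68, *Adgrg1*, an adhesion receptor gene, by 1.45, *Rnase4*, a secreted ribonuclease gene, by 1.08 and *Cst3*, cystatin C, by 0.62. Without the vehicle control 8 of the list fell and without niacin replicate 2 only 6, and among the genes that lost the call then were *Cx3cr1* at -0.62 and -0.68, *Csf1r* at -0.55 and -0.67 and *Cst3* at -0.65 and -0.73. Without niacin replicate 1 the count was 20, and without shared barcodes 0 of 23, with all 23 values negative.

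**Figure D4:**
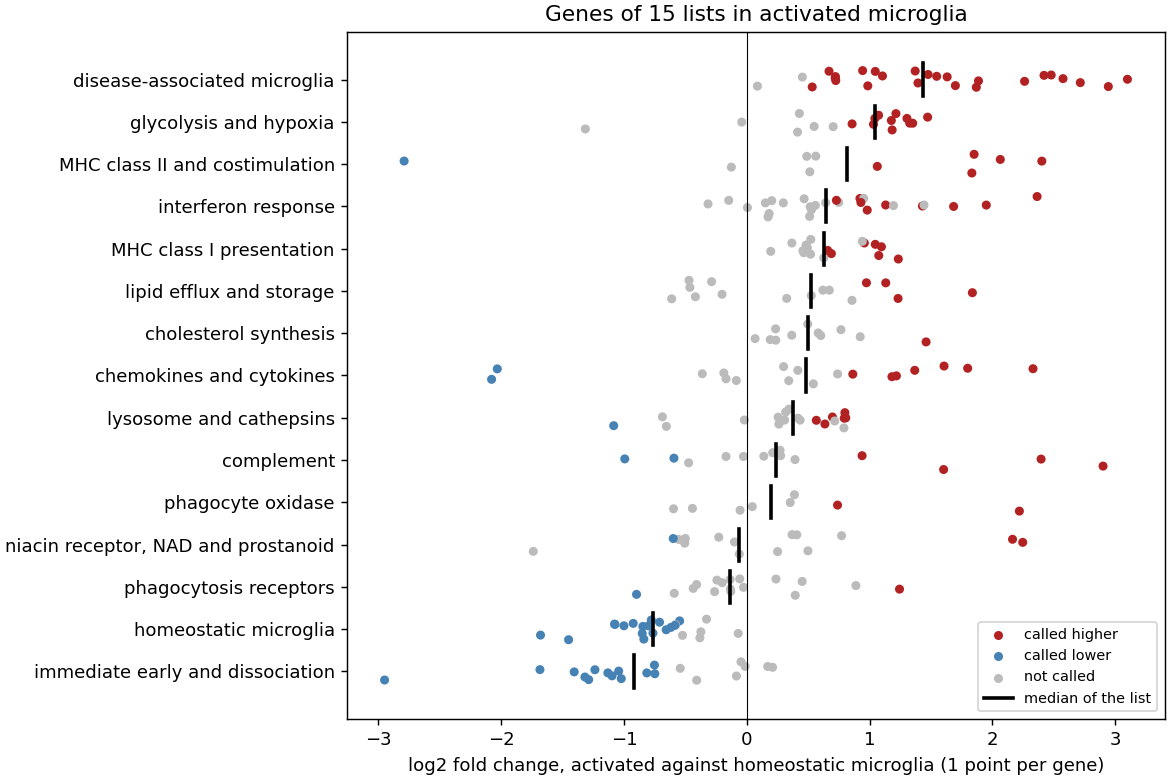
Log2 fold change of activated against homeostatic microglia for the tested genes of 15 lists (1 point per gene, red called higher, blue called lower, grey not called, black bar the median of the list). The medians of the disease-associated and glycolysis lists lie right of 0, at 1.44 and 1.04, and those of the homeostatic and immediate early lists left of it, at -0.76 and -0.92.

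Lipid and sterol genes rose in part. Of 15 tested genes of lipid efflux and storage 4 rose, at a median of 0.53: *Npc2*, which exports cholesterol from lysosomes, by 0.97 (1249, 1469 and 976 against 732, 590 and 595 CPM), *Soat1*, which esterifies cholesterol, by 1.13, *Nceh1*, which cleaves the esters, by 1.84 and *Plin2*, the coat of lipid droplets, by 1.23. *Plin2* lost its call without the vehicle control, at 1.26, and without niacin replicate 2, at 1.12. The efflux transporter *Abca1* differed by 0.33 (adjusted p = 0.442). Of 11 tested genes of cholesterol synthesis, at a median of 0.50, only *Fdps*, farnesyl diphosphate synthase, rose, by 1.46, and it did not pass without the vehicle control (2.03) or without niacin replicate 2 (0.61).

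Of 20 tested lysosome and cathepsin genes 6 rose and 1 fell, at a median of 0.38. *Psap*, prosaposin, rose by 0.79, *Grn*, progranulin, by 0.64, *Gusb*, a glucuronidase gene, by 0.80 and *Atp6v1a*, of the proton pump, by 0.81. These 4 did not pass without the vehicle control (0.80, 0.67, 0.91 and 0.94) or without niacin replicate 2 (0.91, 0.62, 0.78 and 0.73), and no gene of the list rose in either case. *Cd164*, a sialomucin gene, fell by 1.08, without a call at -1.02 when niacin replicate 2 was left out. Cathepsin S, *Ctss*, differed by 0.31 (adjusted p = 0.303). Of 17 tested phagocytosis receptors, at a median of -0.13, the Fc receptor gene *Fcgr4* rose by 1.24 and the integrin gene *Itgav* fell by 0.90, and neither passed without the vehicle control (0.96 and -1.31) or without niacin replicate 2 (1.24 and -0.78).

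Antigen presentation genes rose in part. Of 10 tested class II and costimulation genes 5 rose and 1 fell, at a median of 0.81. *Cd74* stood at 4747, 5016 and 1428 CPM in activated cells and at 2366, 220 and 414 CPM in homeostatic cells, a log2 fold change of 2.40 (SE 0.26, edgeR adjusted p = 2.29e-11). The homeostatic cells of the vehicle control were above the activated cells of niacin replicate 2, so the groups overlapped while each library rose. *H2-Aa* rose by 2.07, *H2-Ab1* by 1.83, *H2-Eb1* by 1.85 and *Cd83* by 1.06, and *Cd80* fell by 2.79 on 2 cells. Without niacin replicate 1 *Cd74* rose by 1.46, *H2-Aa* by 1.07, *H2-Ab1* by 0.96 and *H2-Eb1* by 0.94. Without the vehicle control *Cd74* rose by 3.15, *H2-Aa* by 2.84 and *H2-Eb1* by 2.47, and *Cd80* did not pass at -8.20. Without niacin replicate 2 *H2-Eb1* rose by 2.45 and *Cd80*, at -2.25, did not pass. DESeq2 called none of the 10, and gave *Cd80* no adjusted p. Of 17 tested class I genes 7 rose, at a median of 0.63, among them *B2m* by 1.10, *H2-D1* by 1.08, *H2-K1* by 0.96, *H2-Q7* by 1.23 and the proteasome activator *Psme2* by 1.05, and 4 rose without the vehicle control and 4 without niacin replicate 2. *H2-T23* rose by 0.66 and did not pass without the vehicle control (0.74), niacin replicate 1 (0.43) or niacin replicate 2 (0.85), and *Psme2* not without the vehicle control (0.89) or niacin replicate 2 (0.85).

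Of 27 tested interferon response genes 9 rose and none fell, at a median of 0.64. *Ifi27l2a* rose by 2.36 (1200.1, 297 and 984 against 575, 51.7 and 87.4 CPM), *Ifitm3*, a barrier to virus entry, by 1.95 and *Bst2*, tetherin, by 1.68. Without the vehicle control the first 2 rose by 3.15 and 2.95, and without niacin replicate 2 *Ifi27l2a* rose by 1.65. *Gbp2*, a guanylate binding protein gene, rose by 1.43, and by 2.18 without the vehicle control. Without niacin replicate 2 only 4 genes of the list rose.

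Chemokine genes moved in both directions. Of 18 tested chemokine and cytokine genes 7 rose and 2 fell, at a median of 0.48, with 5 and 0 without the vehicle control and 4 and 1 without niacin replicate 2. *Cxcl16*, a scavenger receptor and chemokine for T cells, stood at 296, 516 and 318 CPM against 107, 58.7 and 56.0 CPM, with a log2 fold change of 2.33 (SE 0.22, edgeR adjusted p = 1.43e-13) and no overlap. *Ccl3* rose by 1.37 (1015, 735 and 1791 against 411, 487 and 495 CPM) and *Ccl4* by 1.61, both chemokines of activated macrophages. *Ccl3* was at 0.44 both without shared barcodes (edgeR adjusted p = 0.878) and without mixed cells (0.692). Mixed cells held 2 or more genes of the T cell, natural killer cell, B cell or neutrophil list. Microglia with 3 or more monocyte genes also counted as mixed. *Ccl4* was at 0.51 without shared barcodes (edgeR adjusted p = 0.814) and at 0.73 without mixed cells (0.365). Without the microglia holding monocyte or macrophage genes it was at 0.54 (0.207). *Ccl5* rose by 1.80, but 57.8% of its UMIs were in 1 cell, it rose by 2.95 without the vehicle control and its value without niacin replicate 2 was -0.02. *Cxcl10*, an interferon-induced chemokine for T cells, fell by 2.03 (53.3, 0 and 7.66 against 235, 5.95 and 31.9 CPM) and did not pass without the vehicle control (-2.06). It was at -1.17 without the microglia holding monocyte or macrophage genes (edgeR adjusted p = 0.196) and at -0.07 without mixed cells (0.991). *Il6* fell by 2.08 on 3 cells and did not pass without the vehicle control (-2.11) or niacin replicate 2 (-2.35).

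Complement genes of the classical initiator did not pass, at 0.21 for *C1qa*, 0.27 for *C1qb* and 0.28 for *C1qc*. Of 14 tested genes of the complement list 4 rose and 2 fell, at a median of 0.24. *C3* rose by 2.40 (151, 46.9 and 38.3 against 34.5, 0.517 and 9.74 CPM), *C4b* by 1.60 with 0 in the activated cells of niacin replicate 1, *C2* by 2.90 on 6 cells and *C3ar1*, the C3a receptor, by 0.94. *Vsir*, an immune checkpoint gene that the list also holds, fell by 0.99. Without the vehicle control 2 genes of the list rose and 1 fell. *C3* did not pass without the vehicle control (2.65), *C2* not without niacin replicate 1 (2.17) and *C4b* not without niacin replicate 2 (0.95).

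Of 8 tested genes of the phagocyte oxidase, at a median of 0.20, *Cybb* and *Cyba*, which form its membrane core, rose. *Cybb* stood at 486, 234 and 207 CPM against 157, 14.7 and 50.2 CPM, with no overlap (log2 fold change 2.22, SE 0.24, edgeR adjusted p = 2.96e-11). It was 3.79 without the microglia holding monocyte or macrophage genes and passed under every alternative but the fit without the library block. *Cyba* rose by 0.74 and did not pass without the vehicle control (0.72) or niacin replicate 2 (0.82). *Prkcd*, a kinase that activates the oxidase, stood at 377, 313 and 165 CPM against 411, 243 and 225 CPM, in both directions across libraries, with a log2 fold change of -0.05 (SE 0.21, edgeR adjusted p = 0.943).

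The niacin receptor gene *Hcar2* stood at 102, 46.9 and 84.2 CPM in activated cells and at 23.2, 23.02 and 15.6 CPM in homeostatic cells, with no overlap. Its log2 fold change was 2.16 (SE 0.33, edgeR adjusted p = 9.52e-07), on 22 of 71 cells with a UMI. It was 0.47 (adjusted p = 0.961) once all barcodes found in several libraries were removed, and 1.65 (adjusted p = 0.164) without the cells of mixed markers. Of 15 tested genes of the niacin receptor, NAD and prostanoid list, at a median of -0.06, *Ptger4*, a prostaglandin E2 receptor gene, also rose, by 2.25 on 11 cells, and *Ptgs1*, cyclooxygenase 1, fell by 0.60. *Ptger4* rose by 4.10 without the vehicle control and did not pass without niacin replicate 2 (1.08), and *Ptgs1* did not pass without any 1 of the libraries (-0.87, -0.43 and -0.61).

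Glycolysis genes rose together. Of 17 tested genes of glycolysis and hypoxia 11 rose and none fell, at a median of 1.04, with 8, 11 and 10 when the vehicle control and niacin replicates 1 and 2 were left out in turn. *Gapdh* stood at 893, 969 and 1110.1 CPM against 464, 491 and 557 CPM, a log2 fold change of 1.03, and *Pkm*, pyruvate kinase, rose by 1.33, *Pgk1* by 1.35, *Ldha*, lactate dehydrogenase A, by 1.305 and *Mif*, a cytokine of the list, by 1.47. *Aldoa* rose by 1.18, under a symbol that 2 gene entries share. The first kinase of the pathway, *Hk2*, differed by -0.04 (adjusted p = 0.955). With the rule on thinned counts none of the list was called, and without shared barcodes 1.

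Immediate early genes, which also mark cells stressed during dissociation, were lower. Of 20 tested genes 13 fell and none rose, at a median of -0.92. *Jun* stood at 838, 1953 and 2063 CPM against 2741, 4769.8 and 4216 CPM, a fall of 1.29 on the log2 scale with no overlap. *Egr1* fell by 1.24, *Btg2* by 1.32, *Fosb* by 1.41, *Klf4* by 1.68 and *Egr2* by 2.95 on 3 cells. *Junb* fell by 0.75. *Egr2* and *Junb* did not pass without the vehicle control (-3.28 and -0.61) or without niacin replicate 2 (-3.001 and -0.81), and *Klf4* was at -2.44 without niacin replicate 2. The count was 8 without the vehicle control and 12 without the microglia holding monocyte or macrophage genes.

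Among the genes that fell most were those of red cells and neutrophils, and niacin replicate 2 was high for them in homeostatic cells. *Hbb-bs*, a hemoglobin chain, stood at 6.40, 328 and 191 CPM in activated cells and at 226, 1112 and 2086 CPM in homeostatic cells, and fell by 3.099 on the log2 scale. *Hba-a1* fell by 3.32, *Hba-a2* by 3.54 and *Hbb-bt* by 3.09, the last without a call at -1.73 when niacin replicate 2 was left out. The calprotectin gene *S100a8* stood at 14.9, 93.8 and 30.6 CPM against 38.8, 127 and 3263 CPM, and fell by 4.49, with -0.90 and no call without niacin replicate 2. *S100a9* fell by 4.03, with -0.75 without niacin replicate 2, and *Camp*, a neutrophil granule gene, by 5.81. Without the microglia holding monocyte or macrophage genes *Camp* was at -0.38 (edgeR adjusted p = 0.921) and *S100a8* at -1.06 (0.145). In DESeq2 *Camp* was at -3.67 (adjusted p = 0.206) and *S100a8* at -2.35 (0.412). The part of the erythroid and neutrophil RNA of these libraries in the values was not tested. Outside these groups, *Whrn* fell by 1.96, with no call at -1.55 without the vehicle control, and *Adrb1*, the beta-1 adrenergic receptor, by 1.86.

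The share of deep microglia that met the rule differed between the pools. It was 37 of 291 in the vehicle control (12.7%, exact Clopper-Pearson 95% interval 9.11 to 17.1%), 8 of 664 in niacin replicate 1 (1.20%, 0.522 to 2.36%) and 26 of 667 in niacin replicate 2 (3.90%, 2.56 to 5.66%). Both niacin pools were below the vehicle control, with intervals that did not overlap its own under this rule. With 1 vehicle control library against 2 niacin libraries an exact permutation test cannot go below p = 0.333, so no test of treatment was made. The shares were 2.68, 0.153 and 0.614% with the rule on thinned counts, and 8.57, 0.932 and 3.47% without the microglia holding monocyte or macrophage genes. In both settings the intervals of the vehicle control and niacin replicate 2 overlapped. They were 1.08 to 5.45% and 0.168 to 1.57% on thinned counts, and 5.16 to 13.2% and 2.19 to 5.21% without those microglia. Fewer activated cells and less activation RNA per cell cannot be told apart by this rule, since both lower the number of cells over its threshold.

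Over all deep microglia, chosen without the activation genes, 4 of the 6 genes were lower in the niacin libraries. In this comparison 8.47% of 11470 genes tested were higher and 10.9% were lower, with 1 vehicle control library that is assumed to vary like the niacin libraries. *Itgax* stood at 71.4 CPM in the vehicle control and at 9.16 and 8.70 CPM in niacin replicates 1 and 2 (log2 fold change -2.94, SE 0.19, edgeR adjusted p = 7.25e-07). *Lpl* stood at 89.4, 32.1 and 22.4 CPM (-1.67, SE 0.18, edgeR adjusted p = 6.74e-05) and *Cst7* at 43.0, 8.40 and 14.9 CPM (-1.81, SE 0.28, edgeR adjusted p = 0.00105). For these 3 genes both niacin pools were below the vehicle control.
*Ch25h* stood at 59.8, 1.53 and 11.4 CPM (-3.096, SE 0.47, edgeR adjusted p = 0.00102), but 133 of its vehicle control UMIs were in 1 cell, and without the microglia holding monocyte or macrophage genes the value was 1.39. It was -2.31 without niacin replicate 1 and -5.22 without niacin replicate 2. *Cxcl13* stood at 71.4, 0.254 and 176 CPM and *Spp1* at 18.1, 24.4 and 1.37 CPM, and neither passed (log2 fold changes 0.38 and -0.48, edgeR adjusted p = 0.853 and 0.733). For both, the niacin libraries lay on opposite sides of the vehicle control, and the values were -7.89 and 0.47 without niacin replicate 2. For *Spp1* the value was -3.61 without niacin replicate 1. DESeq2 called *Itgax* and *Lpl* and none of the other 4, and *Lpl* was at -0.74 (edgeR adjusted p = 0.238) in thinned cells. Without the microglia holding monocyte or macrophage genes *Itgax* was at -1.90, *Lpl* at -1.19 and *Cst7* at -1.37, and all 3 passed.

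**Figure D5:**
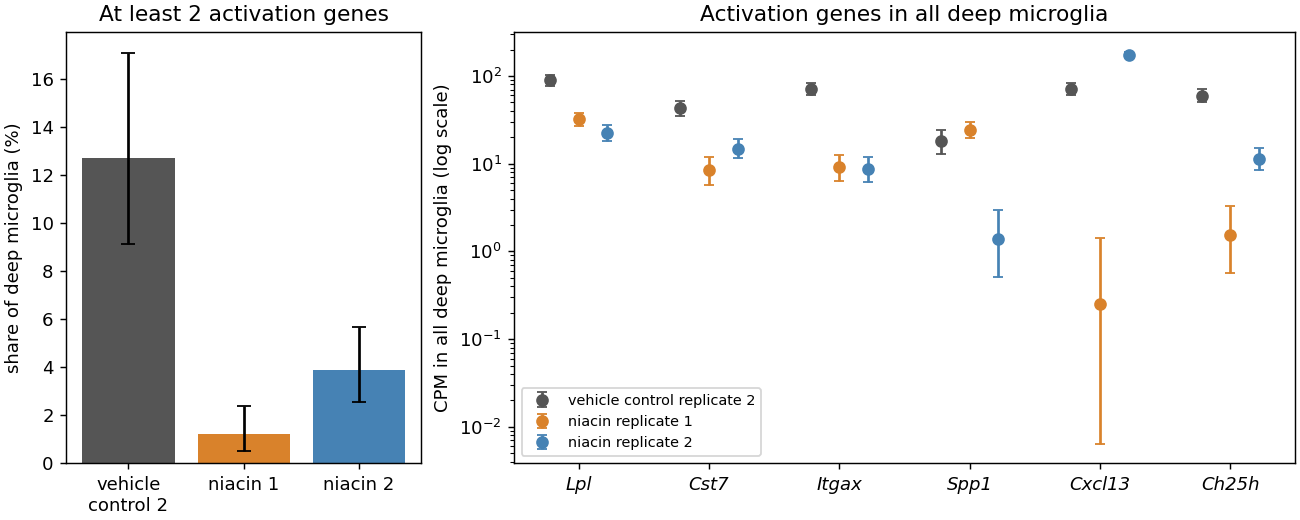
Left, share (%) of deep microglia with at least 2 activation genes in each library, with exact 95% binomial intervals. Right, level (CPM, log scale) of the 6 activation genes in all deep microglia of each library, with exact 95% Poisson intervals, where *Itgax*, *Lpl* and *Cst7* of both niacin libraries lie below the vehicle control and *Cxcl13* and *Spp1* of the niacin libraries lie on either side of it.

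Within activated microglia, niacin was compared with vehicle control on 26 and 8 cells against 37. Of 5457 genes tested 9 were higher in the niacin libraries (0.165%) and 37 were lower (0.678%). The fit had 1 residual degree of freedom and gave every gene the same spread, and the vehicle control was again a single library. DESeq2 called 4 genes, equal weight per cell 6, the set without microglia holding monocyte or macrophage genes 9 and the set without shared barcodes 4. Fewer genes could be tested in some of these settings. They were 1127 with equal weight per cell, 3815 without microglia holding monocyte or macrophage genes and 2350 without shared barcodes. The values below describe these 3 pools.

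Genes of the monocyte and infiltrating macrophage lists were among those that were lower, and several of the lower genes were held by few cells. *Adamdec1*, a metalloprotease-like gene of macrophages, stood at 318, 0 and 0 CPM, at least 34.4-fold lower in niacin against a floor of 3 UMIs over the group, with all UMIs in 2 cells. *Mmp13*, collagenase 3, stood at 213, 0 and 0 CPM (at least 23.1-fold lower, 2 cells), and *AA467197* at 194, 0 and 0 CPM (at least 21.0-fold lower, 98.9% in 1 cell). *Plac8*, on the monocyte list, stood at 320, 0 and 15.3 CPM, with 75.3% in 1 cell, and *Cxcl9* at 465, 0 and 15.3 CPM, with 61.7% in 1 cell. More cells held *Tgfbi*, on the infiltrating macrophage list, at 424, 15.6 and 49.8 CPM in 21 cells (log2 fold change -3.30), *Msr1*, a scavenger receptor, at 232, 0 and 3.83 CPM in 12 cells (-5.99) and *Ly6a* at 460, 0 and 45.9 CPM in 28 cells (-3.66). Without the microglia holding monocyte or macrophage genes *Ly6a* was at -0.65 (edgeR adjusted p = 0.938) and *Cxcl9* at -2.46 (0.833). The other lower genes named in this paragraph could not be tested in that setting, so none of the 10 was called there. The other 2 with the largest falls were *Ccl24*, a chemokine for eosinophils, at 371, 0 and 22.97 CPM and *Pla2g7*, which cleaves platelet activating factor, at 177, 46.9 and 7.66 CPM. *Pla2g7* was at -3.34, and at -1.80 without niacin replicate 2. All 10 were below the vehicle control in both niacin libraries, and the macrophage genes of the vehicle control cells given above moved with them.

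Of the 7 genes that were higher in both niacin libraries, 4 belong to red cells and choroid plexus. *Hba-a1* stood at 0, 156 and 68.9 CPM (at least 13.5-fold higher), *Hbb-bs* at 6.40, 328 and 191 CPM, *Ttr*, transthyretin, at 32.0, 266 and 2729 CPM with 90.5% in 1 cell (log2 fold change 5.65, and 3.14 without niacin replicate 2), and *Enpp2*, autotaxin, at 4.26, 15.6 and 176 CPM with 91.8% in 1 cell. Summed erythroid genes were likewise at 490, 2387 and 3769 CPM in homeostatic cells of the vehicle control and niacin replicates 1 and 2, so the same libraries were high in both classes. *Ccnd3*, cyclin D3, stood at 17.1, 109 and 84.2 CPM and *B430010I23Rik* at 14.9, 78.1 and 103 CPM. *Apoe* stood at 4361, 36288 and 5087 CPM (log2 fold change 2.30, SE 0.41, edgeR adjusted p = 9.52e-06), which became 0.31 without niacin replicate 1 and 3.16 without niacin replicate 2. DESeq2 did not call it (adjusted p = 0.9997).

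Few genes of the lists were called between treatments. Of 25 tested interferon response genes 4 were lower and none higher, at a median of -0.84 against 0.00 over all genes. *Gbp2* stood at 401, 78.1 and 45.9 CPM, *Gbp3* at 87.4, 15.6 and 0 CPM, *Gbp7* at 252, 31.3 and 49.8 CPM and *Slfn5* at 126, 0 and 19.1 CPM, all interferon-induced and all below the vehicle control in both niacin libraries. DESeq2, with 4 calls in all, called none of the 25. Without the microglia holding monocyte or macrophage genes, 15 of the list could be tested, at a median of 0.68 against 0.03 over all genes, and edgeR called none. The infiltrating macrophage genes, at least 2 of which were held by 17 of 37 vehicle control cells but by 2 of 8 and 1 of 26 niacin cells, moved with the interferon genes, and their part was not tested. *Ciita*, the switch of MHC class II genes (87.4, 0 and 0 CPM), and *Tap1*, the peptide transporter (247, 62.5 and 61.2 CPM), were also lower, while *Cd74* did not pass at -0.52 (4747, 5016 and 1428 CPM). *Nampt*, which makes the NAD precursor of the salvage pathway, was lower at 249, 46.9 and 34.5 CPM, as were *Cd36*, a fatty acid receptor (117, 15.6 and 3.83 CPM), and *Fcgr4* (305, 62.5 and 84.2 CPM). *Ccl5* was called higher although niacin replicate 1 lay below the vehicle control (117, 15.6 and 746 CPM), and so was *Gzma*, a granzyme gene with 80.0% of its UMIs in 1 cell.
Of 28 disease-associated genes tested *Apoe* alone was called, at a list median of 0.30. None of 23 homeostatic, 17 glycolysis, 18 immediate early, 18 lysosome, 15 complement, 8 oxidase and 5 cholesterol synthesis genes was called by edgeR. Their medians were 0.38, -0.50, 0.63, 0.35, 0.11, -0.24 and 0.52. The remaining lists were at medians of 0.01 for lipid efflux and storage, -0.14 for chemokines and cytokines, -0.60 for MHC class II, -0.57 for class I, -0.33 for phagocytosis receptors and -0.22 for the niacin receptor list. *Prkcd* differed by -0.72 (SE 0.51), *Cybb* by -1.10 (SE 0.50) and *Hcar2* by -0.41 (SE 0.56), without passing (edgeR adjusted p = 0.999, 0.667 and 0.999).

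Whether the niacin difference itself differed between the classes was tested as an interaction over the 6 sums. Of 10201 genes 8 were higher (0.0784%) and 4 lower (0.0392%), where higher means that the niacin difference was more positive in activated than in homeostatic microglia. The class II chain *Cd74* was among them, with an interaction of 2.02 (SE 0.47, edgeR adjusted p = 0.0202). It stood at 2366, 220 and 414 CPM in homeostatic cells and at 4747, 5016 and 1428 CPM in activated cells. The 5016 CPM rests on 8 cells of niacin replicate 1, where 1 held 164 *Cd74* UMIs, 1 held 115 and the others 0 to 29. The other 7 higher genes were *Ifi27l2a*, *Ifitm3*, *Ccl5*, *Cd83*, *Il1b*, *Gzma* and *Ahnak*, and the 4 lower ones were *Ccl24*, *S100a8*, *S100a9* and *Lcn2*. DESeq2 called 1 gene, and edgeR called none with equal weight per cell (92 at unadjusted p under 0.05) and none without shared barcodes (49 at unadjusted p under 0.05). *Prkcd*, *Cybb* and *Hcar2* did not pass, at -0.09, 0.98 and -0.18.

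Activated microglia were also compared with the other myeloid cells of the tissue. Monocytes and macrophages were the 324 deep cells with at least 3 of 7 monocyte genes and under 3 microglia genes, 218 of them in the vehicle control. Of 6230 genes tested 596 were higher in activated microglia (9.57%) and 667 were lower (10.7%). The counts in all were 525 of 2311 tested without shared barcodes and 52 of 254 tested with the rule on thinned counts. *Sgce*, sarcoglycan epsilon, stood at 70.3, 141 and 115 CPM against 0 in each library, at least 105-fold higher against a floor of 3 UMIs over the group. *Slc1a3*, a glutamate transporter gene on the astrocyte list, was higher by 8.35 on the log2 scale. *Serpine2*, a protease inhibitor gene, was higher by 7.45, *Lrrc3* by 7.19 and *Cp* by 7.17. The lowest were *Ngp* at 0 in activated cells (at least 1549-fold lower), *Pglyrp1* (at least 127-fold), *Mgst1* (at least 56.1-fold), *Camp* at a log2 fold change of -10.39 and *S100a8* at -9.96. The monocyte class held 5064, 79819 and 51166 CPM of *S100a8*, so neutrophil RNA was high in it.

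Of 22 homeostatic genes tested against monocytes and macrophages 20 were higher and none lower, at a median of 3.13 against -0.04 over all genes. Of 27 disease-associated genes 13 were higher and 6 lower, at a median of 1.60: *Trem2* was higher by 4.57 (1021, 2625 and 1822 against 57.3, 49.5 and 65.5 CPM), and the lower ones were *Lyz2*, *Fabp5*, *Lgals3*, *Capg*, *Ccl6* and *Plaur*. Activated microglia thus exceeded monocytes and macrophages in some genes of the program and fell below them in others. Of 27 interferon response genes none was higher and 13 were lower, at a median of -1.44, and of 20 lysosome genes 7 were higher, at a median of 1.11. Of 14 genes of the complement list 7 were higher, among them *C1qa* by 5.85, *C1qb* by 5.33 and *C1qc* by 5.98. On that list 2 were lower, *C3* at -2.28 and *Cfp*, properdin, at -3.43. Of 17 chemokine genes 6 were higher and 5 lower, of 18 phagocytosis receptors 7 and 2, of 19 immediate early genes 6 and 2, of 12 niacin receptor list genes 4 and 3, and of 17 lipid genes 3 and 3. Of 18 glycolysis genes 5 were lower and none higher, as were 4 of 17 class I genes, 3 of 10 cholesterol synthesis genes and 3 of 8 oxidase genes. Of 10 class II genes *H2-Oa* was higher and *Ciita* lower. *Cybb* stood at 486, 234 and 207 CPM against 1312, 1159 and 1514 CPM and was lower (log2 fold change -2.46, edgeR adjusted p = 0.00222). *Hcar2* was higher by 2.47 (102, 46.9 and 84.2 against 27.5, 0 and 6.55 CPM, edgeR adjusted p = 0.00976), and *Prkcd* differed by -1.05 (adjusted p = 0.0554), without passing.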

How the data were processed

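Droplet single cell RNA-seq of 3 pooled mouse brain samples was used. The authors made Chromium 3′ v3.1 libraries and ran Cell Ranger 3.1 with STAR on mm10, per the labels, and deposited unnormalized UMI counts of 31053 genes in 6947 barcodes. Doublets were not called. The members and gene lists were chosen with earlier results of these data known, so no pattern here is independent support. The labels describe pools of 4 tissues and do not say that the pools of the niacin group were processed separately. The p-values therefore describe these pools only. Between classes and in the interaction, the library block takes out differences between pools. What remains is how unevenly the class difference ran across libraries, in the interaction across the niacin libraries. For niacin against vehicle control, the spread between libraries comes from the niacin libraries alone. Within activated microglia and in the interaction, with 1 residual degree of freedom, every gene was given the same spread.

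UMIs were summed per library and class. The quasi-likelihood test of edgeR 4.0.16 (R 4.3.3) was run on TMM-normalized sums after filterByExpr, with Benjamini-Hochberg adjustment over all genes tested and a call at an adjusted p under 0.05, and SE was taken from the log2 fold change and its F. The 18 genes of the rule were left out of the tests and library sizes, except that the activation genes were kept in the comparison of all deep microglia. The monocyte list was also left out of the comparison with monocytes and macrophages, since it chose them. The comparisons between classes had the library as a block, since both classes came from the same pool. Cell type genes were grouped in 13 lists and other genes in 15 lists, named beside their results. For activated against homeostatic microglia the text names the 15 highest and 10 lowest called genes with a mean of at least 50 CPM and 1 direction in 3 of 3 libraries, for niacin up to 10 in each direction by the same measure over both niacin libraries, for monocytes and macrophages 5 in each direction, and from each list up to 4 of the highest level and up to 4 of the largest change, with *Prkcd*, *Cybb* and *Hcar2*. Other genes were named after their values were seen, where a count was small or a list needed its exceptions.

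Intervals of shares (Clopper-Pearson) and levels (Poisson) are at 95%. The scripts were tested on simulated data. Alternatives were DESeq2 1.42.0, RLE normalization, no filter, no block, each library left out and other rule thresholds. Others were counts thinned to 2000 UMIs, no shared barcodes and no mixed cells. Mixed cells held 2 or more genes of the T cell, natural killer cell, B cell or neutrophil list. Microglia with 3 or more monocyte genes also counted as mixed, and the remaining cell type lists were not used for this. Chosen after seeing the data were equal weight per cell and leaving out microglia with at least 2 monocyte or 2 infiltrating macrophage genes. Python 3.11.15, numpy 2.4.6, pandas 2.3.3, scipy 1.17.1 and matplotlib 3.10.9 were used. A few members of the lists are counted but not reported here by name.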

Additional observations from a re-analysis of the deposited data

Results flagged for a closer look

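The edgeR interaction test over the sums of 3 libraries called 12 genes, for which the niacin difference was unequal in activated and in homeostatic microglia. The 7 given here are those that the rules for the other comparisons also name, and *Lcn2*, *Gzma*, *Il1b*, *Ahnak* and *Cd83* are the other 5. The values are the niacin difference in activated minus that in homeostatic microglia on the log2 scale. For *Cd74*, the class II invariant chain, it was 2.02 (SE 0.47), for *Ifi27l2a*, an interferon-induced gene, 1.95 (SE 0.48), for *Ifitm3*, of the same response, 2.25 (SE 0.50) and for the chemokine gene *Ccl5* 2.97 (SE 0.53). In homeostatic cells *Cd74*, *Ifi27l2a* and *Ifitm3* were lower in both niacin libraries than in the vehicle control. In activated cells *Cd74* was not, at 4747, 5016 and 1428 CPM. The 5016 CPM rests on 8 cells of niacin replicate 1, where 1 held 164 *Cd74* UMIs, 1 held 115 and the others 0 to 29. *Ccl5* rested on niacin replicate 2, at 746 CPM in activated cells, where 1 cell held 57.8% of the UMIs of the class. The calprotectin genes *S100a8*, at -4.02 (SE 0.90), and *S100a9*, at -3.71 (SE 0.84), differed the other way, with 3263 and 3389.7 CPM in homeostatic cells of niacin replicate 2. The chemokine gene *Ccl24* was at -3.18 (SE 0.78), on 9 activated cells. The fit had 1 residual degree of freedom and 1 vehicle control library, and DESeq2 called 1 gene of the whole table.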

How the results depend on the processing

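No paired analysis was possible for niacin against vehicle control because the groups share only 1 replicate number. Depth, few cells and barcodes shared between libraries limit every comparison. RLE normalization, at least 4000 UMIs and at most 10% mitochondrial UMIs kept every count of calls within 1.5 times, and so did the removal of the filter except against monocytes and macrophages. The count for activated against homeostatic microglia was 669. In DESeq2 it was 274, with no adjusted p for 4825 of the 8888 genes. It was 46 with no replicate block, 275 with at least 3 activation genes, 15 with the rule on thinned counts and 45 without shared barcodes. It was 148 without mixed cells, 231 with equal weight per cell, 419 without microglia holding monocyte or macrophage genes, and 178 to 944 with 1 library left out. Under the same settings in that order, without the block, niacin in activated microglia had 4, 2, 0 (6 at unadjusted p under 0.05 in edgeR), 4, 12, 6 and 9 calls against 46, and the interaction 1, 2, 0 (1 at unadjusted p under 0.05), 0 (49), 5, 0 (92) and 4 against 12. In all deep microglia 2216 genes were called, and 258 in DESeq2, 809 on thinned counts and 1420 without mixed cells. Against monocytes and macrophages 1263 of 6230 tested were called, and 2119 of 15274 with no filter. With at least 3 activation genes 839 of 5204 were called and on thinned counts 52 of 254. Without shared barcodes 525 of 2311 were called, without mixed cells 329 of 2126 and with equal weight 311 of 1221. Smaller sets of cells left fewer genes to test, as few as 160 for niacin in activated microglia on thinned counts.

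With at least 3 activation genes the shares were 4.51, 0.455 and 1.23% in the vehicle control and niacin replicates 1 and 2, on thinned counts 2.68, 0.153 and 0.614%, and without shared barcodes 8.33% in the vehicle control and 2.35% in niacin replicate 2. The vehicle control was at 8.57% without microglia holding monocyte or macrophage genes, and niacin replicate 2 at 2.16% without mixed cells. The vehicle control was highest and niacin replicate 1 lowest in each of these settings. With at least 3 activation genes the intervals of the vehicle control (2.35 to 7.75%) and niacin replicate 2 (0.534 to 2.41%) overlapped. So did they on thinned counts and without microglia holding monocyte or macrophage genes.

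Values changed sign as follows, and the cause was not tested. With the rule on thinned counts, where the median of all genes was -0.86, activated against homeostatic microglia gave -0.18 for *Ctsd*, -0.071 for *Fth1*, -0.98 for *Soat1*, -1.06 for *Ccl3*, -0.020 for *H2-T23*, -0.19 for *Psme2*, -0.68 for *Cyba*, -0.0043 for *Grn*, -1.28 for *Atp6v1a*, -0.12 for *Gusb*, -0.18 for *Aldoa* and -0.52 for *Mif*. With 1 library left out *Ccl5* ranged from -0.016 (without niacin replicate 2) to 2.95 and *Prkcd* from -0.17 to 0.13 (without niacin replicate 2), and *Prkcd* was at 0.022 with no replicate block. In all deep microglia *Cxcl13* was at -7.89 without niacin replicate 2, 1.37 without niacin replicate 1 and -3.60 without mixed cells, *Ch25h* at 1.39 without microglia holding monocyte or macrophage genes, and *Spp1* at 0.47 without niacin replicate 2, -3.61 without niacin replicate 1, 0.081 with at most 10% mitochondrial UMIs and 0.31 without microglia holding monocyte or macrophage genes.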
